A study of Mus musculus with 2 samples.

Results

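The cells described here are a small set of the LT-HSC library that carried much platelet factor 4 (Pf4) transcript and were in the cell cycle. They were chosen by their counts: a cell needed 1000 or more detected genes, less than 10% of UMIs from mitochondrially encoded genes, at least 10 Pf4 UMIs per 10000, under 10 carbonic anhydrase 1 (Car1) UMIs per 10000, and at least 5 per 10000 summed over 7 proliferation genes (Mki67, Top2a, Cenpf, Kif11, Nusap1, Tpx2 and Prc1). By this rule 100 of the 2722 cells kept from that library were Pf4-high cycling cells, a share of 3.67% (exact Clopper-Pearson 95% interval 2.999 to 4.45), in a series with 9370 kept cells. They are set against 148 Pf4-high low-cycle cells, which met the Pf4 and Car1 limits but stayed under the proliferation limit, and against the other 2474 kept cells. Those other cells held 499 Car1-high cycling and 348 Car1-high low-cycle cells, and 197 Pf4-low Car1-low cycling and 1430 Pf4-low Car1-low low-cycle cells.

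The study profiled haematopoietic stem cells (HSCs) from bone marrow of wild-type C57Bl6 mice (Mus musculus), 8 weeks old by the series title, with the 10x Genomics 3' droplet method, in which each captured transcript is tagged with a unique molecular identifier (UMI). Long-term HSCs (LT-HSC) were sorted by flow cytometry as LSK cells, the lineage-negative marrow fraction that carries Sca-1 and Kit, with the phenotype CD34-, CD150+, CD48- and Flk2-. Short-term HSCs (ST-HSC) were sorted as LSK cells that were CD34-, CD150+ and CD48+. Each gate gave 1 library, both libraries carry no treatment or engineered allele, and the number of mice behind each is not stated. Every group compared below lies within the LT-HSC library, so no test across samples was possible, and genes are described by the size of a ratio with an interval that covers counting error only.

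As background, megakaryocytes are the marrow cells that shed platelets. Cells with an early megakaryocyte programme are known to lie within the phenotypic HSC gate, since CD150 is shared between HSCs and megakaryocyte precursors. Megakaryocyte precursors first divide and then turn to endomitosis, in which DNA is replicated and mitosis is entered but the cleavage furrow regresses and the cell becomes polyploid. ECT2, the guanine nucleotide exchange factor that activates RhoA at the furrow, and non-muscle myosin IIB (MYH10) are known for being turned down when megakaryocytes become polyploid.

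The promoters of 4 genes that stand for the 2 sides of these cells are shown first: Pf4 and Cavin2 for the megakaryocyte programme, and Ube2c and Ckap2l for the mitotic one. Each sequence is the 250 bases before the gene's RefSeq start on the gene's own strand, from the build GRCm38.p6 (mm10). Capitals mark letters of motifs that were searched on both strands. These were the CCAAT box, the cell cycle homology region (CHR) with the letters TTTGAA, the binding letters of GATA factors in the form AGATAA, those of ETS factors in the form CGGAAG, those of E2F factors in the form TTCCCGC, and the promoter element TATAAA.
Pf4 (chr5:90772185-90772434, plus strand): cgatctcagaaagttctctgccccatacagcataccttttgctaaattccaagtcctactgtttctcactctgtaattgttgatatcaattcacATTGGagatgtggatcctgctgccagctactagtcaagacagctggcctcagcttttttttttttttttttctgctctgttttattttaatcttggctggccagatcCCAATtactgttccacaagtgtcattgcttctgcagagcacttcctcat
Cavin2 (chr1:51288876-51289125, plus strand): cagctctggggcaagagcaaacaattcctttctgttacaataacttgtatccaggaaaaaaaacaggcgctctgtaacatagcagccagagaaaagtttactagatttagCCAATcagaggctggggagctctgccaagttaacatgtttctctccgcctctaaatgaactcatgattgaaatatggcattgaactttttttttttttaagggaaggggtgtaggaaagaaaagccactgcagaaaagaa
Ube2c (chr2:164769679-164769928, plus strand): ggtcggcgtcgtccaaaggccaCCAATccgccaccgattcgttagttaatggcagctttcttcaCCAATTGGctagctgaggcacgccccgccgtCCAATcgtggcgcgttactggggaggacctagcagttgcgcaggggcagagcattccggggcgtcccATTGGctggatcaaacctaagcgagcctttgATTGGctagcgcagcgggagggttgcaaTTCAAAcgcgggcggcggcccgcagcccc
Ckap2l (chr2:129297213-129297462, minus strand): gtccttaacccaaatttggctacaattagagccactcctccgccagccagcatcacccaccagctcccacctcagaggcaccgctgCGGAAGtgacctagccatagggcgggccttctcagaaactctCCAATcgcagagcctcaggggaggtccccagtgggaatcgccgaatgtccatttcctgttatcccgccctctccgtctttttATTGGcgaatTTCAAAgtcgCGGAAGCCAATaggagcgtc

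The Ube2c window held 6 CCAAT boxes, of which a forward and a reverse one overlap, and 1 CHR between 29 and 24 bases before the start. The Ckap2l window held 3 CCAAT boxes, 2 ETS motifs and 1 CHR between 30 and 25 bases before the start. The Pf4 window held 2 CCAAT boxes and the Cavin2 window 1, with no other letters in capitals. Of the 47 genes of a G2 and M phase list, 41 matched a RefSeq promoter, and 31 of these (75.6%) held a CCAAT box and 16 (39.02%) a CHR. Of 31 matched genes of an S phase list 22 (71.0%) held a CCAAT box, so that box was not particular to the mitotic list. Of 26 platelet and megakaryocyte surface receptor genes 22 matched, and 4 (18.2%) held a CCAAT box while 6 (27.3%) held the GATA letters. The other megakaryocyte lists did not share this: the GATA letters were in 1 of 14 matched granule genes (7.14%) and 2 of 25 cytoskeleton and signalling genes (8%). Over 27025 genes with a promoter the shares were 37.5% for the CCAAT box, 18.3% for the CHR and 11.4% for the GATA letters. In all these shares a gene counted when any of its promoter windows of that length held the letters. A match is a description of letters and not a binding site.

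Depth differed between the groups, which limits how shares of cells can be read. The Pf4-high cycling cells held a median of 28813.5 UMIs (4041 to 103826), against 20779.5 in Pf4-high low-cycle cells, 42573 in Car1-high cycling cells, 25449 in Pf4-low Car1-low cycling cells and 16718 over the rest of the library. The summed UMIs were 3379329 in the Pf4-high cycling cells and 3677929 in the Pf4-high low-cycle cells, so 5 CPM (counts scaled to 1000000 UMIs of a group), the mean level a gene needed to enter a comparison, stood for 16.9 UMIs in the Pf4-high cycling cells. Scrublet, a doublet caller, marked 7 of the 2722 cells, 2 of them Pf4-high cycling, which is too few to show that it worked. The 2 libraries shared 8 deposited cell barcodes, 6 of them among kept cells of both and 1 of them a Pf4-high cycling cell. That cell had 21789 UMIs and 128.5 Pf4 UMIs per 10000 in the LT-HSC library, and its barcode had 41762 UMIs and no Pf4 UMI in the ST-HSC library.

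The values that chose the cells are given as a description. Pf4, a platelet alpha-granule chemokine (chromosome 5, 90772435 to 90773383, plus strand), had a median of 42.6 UMIs per 10000 (10.5 to 220) in Pf4-high cycling cells and 34.5 (10.4 to 200.5) in Pf4-high low-cycle cells. The 7-gene sum had a median of 15.8 per 10000 (5.01 to 50.5) in Pf4-high cycling cells and 0.963 (0 to 4.997) in low-cycle cells. Neither limit fell in a gap. Just inside the proliferation limit lay 15 cells with sums between 5 and 8 (median 6.67), and just outside it lay 36 cells with sums between 2 and 5 (median 3.04), while 40 low-cycle cells had a sum of 0. Just inside the Pf4 limit lay 10 cycling cells with 10 to 15 Pf4 UMIs per 10000, and just outside it 12 with 5 to 10. Car1 was at 0 in 49 of the 100 cells and reached at most 7.80 per 10000.

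**Figure D1:**
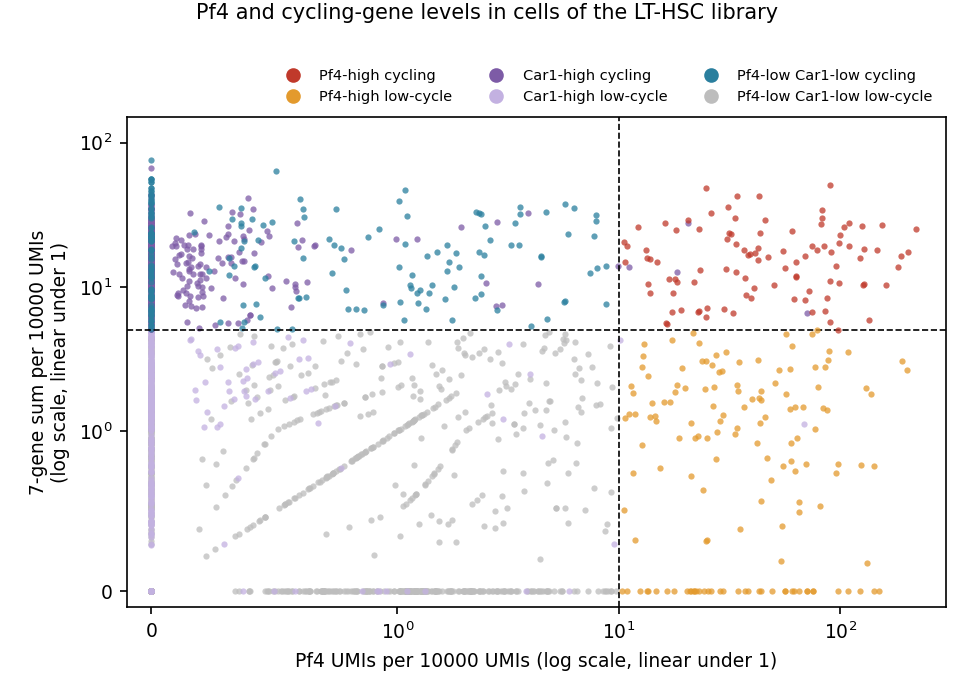
Each point is a kept cell of the LT-HSC library, with Pf4 UMIs per 10000 on the horizontal axis and the summed 7 proliferation genes per 10000 on the vertical axis, both on log scales that turn linear under 1; colours give the 6 groups and dashed lines the limits of 10 and 5. The 100 Pf4-high cycling cells fill the upper right field without a gap to the 148 Pf4-high low-cycle cells under the line.

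Of 254 cells with at least 10 Pf4 UMIs per 10000, 6 also reached 10 for Car1, against 847 of all 2722 kept cells. Of those 6 cells 4 passed the proliferation limit and were left out by the Car1 limit. Pf4 and Car1 are both values of the rule, so these counts are a description. Among Pf4-high Car1-low cells 100 of 248 (40.3%, 34.2 to 46.7) were cycling, against 499 of 847 Car1-high cells (58.9%, 55.5 to 62.3) and 197 of 1627 Pf4-low Car1-low cells (12.1%, 10.6 to 13.8). With each cell thinned to 5000 UMIs and the rule applied anew, the shares were 37.6%, 57.2% and 12.6%. The order of these 3 classes was the same at equal depth. Within the Pf4-high cells the share was 28 of 82 (34.1%, 24.0 to 45.4) at 10 to 25 Pf4 UMIs per 10000, 27 of 67 (40.3%, 28.5 to 52.996) at 25 to 50, 28 of 70 (40.0%, 28.5 to 52.4) at 50 to 100, and 17 of 29 (58.6%, 38.9 to 76.5) at 100 or more, where the intervals of neighbouring bins overlap. The median UMIs per cell in these 4 bins were 21276, 25507, 25573 and 29677, and the part of depth in this order was not tested.

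The megakaryocyte genes of the cells are described with genes that the rule did not use. Cavin2 is 1 of the 5 marker genes of these cells, and the lists were chosen with earlier results known, so this is not an independent check. Cavin2, a caveola-associated protein that is abundant in platelets (chromosome 1, 51289126 to 51302960, plus strand), was found in 100 of 100 Pf4-high cycling cells, with 0.38 to 9.16 UMIs per 10000 and a median of 2.43, against a median of 2.31 in Pf4-high low-cycle cells. Summed, Cavin2 had 290 CPM in Pf4-high cycling cells, 248 CPM in Pf4-high low-cycle cells, 6.43 CPM in Car1-high cycling cells and 61.1 CPM in Pf4-low Car1-low cycling cells. Itga2b, the alpha-IIb integrin subunit of the fibrinogen receptor (chromosome 11, 102453297 to 102470122, minus strand), had 170 CPM, 169 CPM, 7.22 CPM and 58.1 CPM in these 4 groups in the same order. Both genes were at about the same level in the 2 Pf4-high groups and far lower in the other cycling cells. The 13 megakaryocyte progenitor markers other than Pf4 summed to 2595.5 CPM in Pf4-high cycling cells, 2728 CPM in Pf4-high low-cycle cells and 659 CPM in the rest of the library. Within that rest they summed to 1017 CPM and 1006 CPM in Pf4-low Car1-low cycling and low-cycle cells. In Car1-high cycling and low-cycle cells they summed to 345 CPM and 418 CPM. Some platelet genes had few UMIs in the 100 cells. Tubb1, the beta-tubulin of the platelet marginal band, had 3 UMIs. Gp6, the platelet collagen receptor, had 10 UMIs, and Ppbp, another alpha-granule chemokine, had 28 UMIs. Other platelet genes were seen more widely. With each cell thinned as above, Treml1 was seen in 35.4%, Vwf in 31.3% and Gp1bb in 17.2% of 99 Pf4-high cycling cells. The low counts of Tubb1, Gp6 and Ppbp thus do not describe platelet genes as a class.

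Markers of other cell types were at uneven levels. The 9 HSC markers summed to 1063 CPM in Pf4-high cycling cells and 1261 CPM in Pf4-high low-cycle cells. They summed to 292 CPM in Car1-high cycling cells and 1592 CPM in Pf4-low Car1-low cycling cells. The highest sum, 2476 CPM, was in Pf4-low Car1-low low-cycle cells, and Car1-high low-cycle cells had 385.5 CPM. The 8 erythroid progenitor markers other than Car1 summed to 771 CPM in Pf4-high cycling cells, 784 CPM in Pf4-high low-cycle cells and 1672 CPM in the rest of the library. Within that rest they summed to 2328 CPM in Car1-high cycling cells, and to 1117 CPM and 982 CPM in Pf4-low Car1-low cycling and low-cycle cells. The 5 neutrophil-monocyte markers summed to 104 CPM in Pf4-high cycling cells, 111 CPM in Pf4-high low-cycle cells, 26.5 CPM in Car1-high cycling cells and 172 CPM in Pf4-low Car1-low cycling cells. Of these, Prtn3, a granule protease, had 79.3 CPM in Pf4-high cycling cells and Ms4a3 24.9 CPM, and their part in the results was not tested. No UMI of Mpo, Elane and Ctsg (granulocyte enzymes, with Mpo at 0 in each of the 6 groups at 5000 UMIs), Il7r and Dntt (lymphoid), Prss34 (basophil) or Cd3e (T cell) was counted in the 100 cells, where a count of 0 allows at most 3 UMIs. The 4 T and NK cell markers summed to 211 CPM in Pf4-high cycling cells and 188 CPM in Pf4-high low-cycle cells, of which Nkg7, a cytotoxic granule gene, made up 209 CPM and 188 CPM. Nkg7 was thus not tied to the cycle within the Pf4-high cells.

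**Figure D2:**
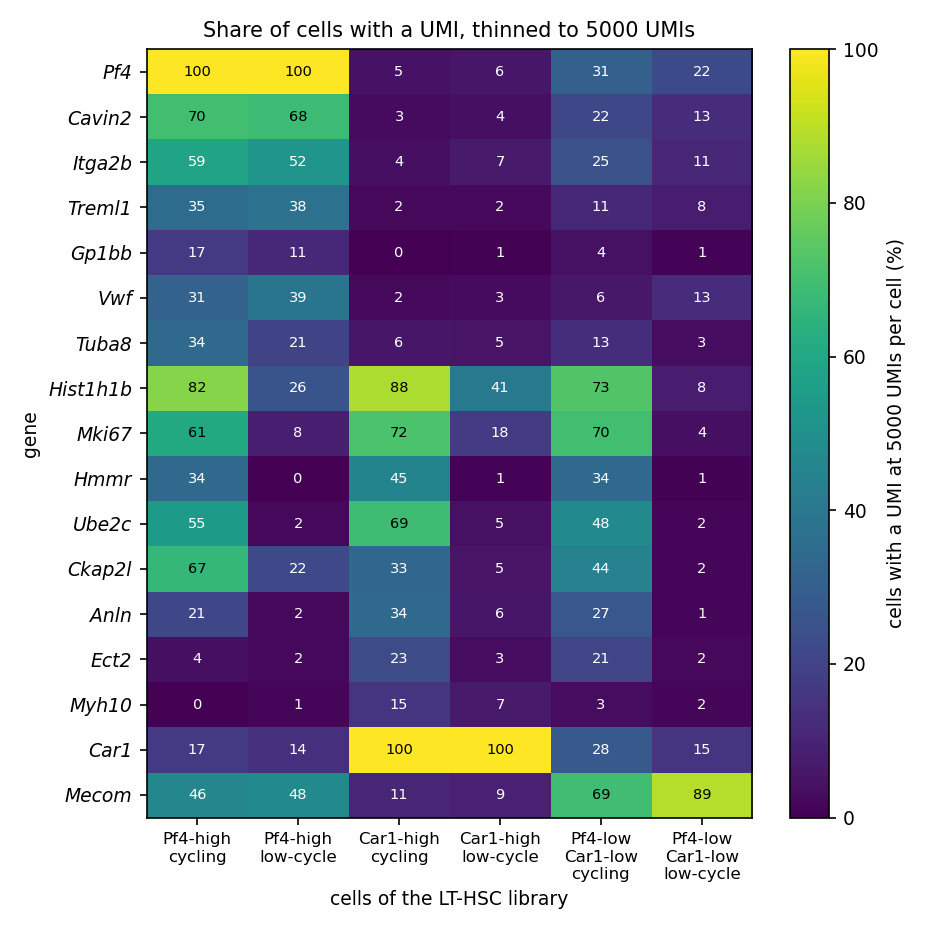
Percent of cells with at least 1 UMI of each of 17 genes after every cell was thinned to 5000 UMIs, in 6 groups with the Pf4-high cycling cells at the left. Cavin2 was seen in 69.7% of Pf4-high cycling cells, 68.5% of Pf4-high low-cycle cells and 3.06% of Car1-high cycling cells, while Mki67 was seen in 60.6%, 8.22% and 71.7% of the same groups.

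Free RNA in droplets can give single UMIs, so the same shares in a class that should lack the gene are set beside them. At 5000 UMIs per cell, Pf4 was seen in 100% of Pf4-high cycling cells by the rule, against 4.89% of 491 Car1-high cycling cells and 30.8% of 185 Pf4-low Car1-low cycling cells. Treml1, a receptor of platelet alpha granules, was seen in 35.4% of Pf4-high cycling cells, 37.7% of Pf4-high low-cycle cells and 2.04% of Car1-high cycling cells. Vwf, which encodes von Willebrand factor and marks platelet-biased HSCs, was seen in 31.3%, 39.04% and 2.04% of these groups. These shares lie above the level in the Car1-high cells in both Pf4-high groups.

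Set against Pf4-high low-cycle cells, the cycling cells differed in mitotic and histone genes while the megakaryocyte genes were close. Of 9847 genes with a mean of at least 5 CPM, 567 (5.76%) were 1.5-fold or more higher and 672 (6.82%) 1.5-fold or more lower in the Pf4-high cycling cells, so 45.8% of these genes were on the higher side, against 55.9% when groups were scaled by TMM factors. The 7 proliferation genes of the rule belong to the same programme as the lists that follow, so the cell cycle differences are a description of what the rule selected. Of 46 genes of the G2 and M phase list that entered, 44 were higher and none lower, with a median log2 ratio of 2.32 beside -0.05 over all genes. The list summed to 8462 CPM in Pf4-high cycling cells and 2485 CPM in Pf4-high low-cycle cells. A gene that is expressed in the cycling cells alone enters only through them, so these counts describe the list and support nothing further.

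The mitotic genes differed widely in level, while the cells of the groups overlapped: 12 of 146 low-cycle cells (8.22%) reached a G2 and M share of 0.40% of 5000 UMIs, under which 10% of the Pf4-high cycling cells lay. Ube2c, the ubiquitin-conjugating enzyme of the anaphase-promoting complex (chromosome 2, 164769898 to 164778822, plus strand), had 1401 UMIs in the cycling cells and 12 UMIs in the low-cycle cells, or 415 CPM and 3.26 CPM, a ratio of 127 (95% interval 72.5 to 247). Hmmr, the spindle-associated hyaluronan receptor RHAMM (chromosome 11, 40701395 to 40733422, minus strand), had 415 UMIs in 80 cells against 1 UMI in 1 cell, a ratio of 452 (80.6 to 17882). Plk1, a mitotic kinase, had 201 UMIs against 2 UMIs, a ratio of 109 (29.9 to 909). Birc5 (survivin), a subunit of the chromosomal passenger complex, had 289 CPM in Pf4-high cycling cells and 14.95 CPM in low-cycle cells. Mki67, a rule gene (chromosome 7, 135689784 to 135716361, minus strand), had 320 CPM against 28.8 CPM. Ube2c, Hmmr and Plk1 were thus near 0 in the low-cycle cells, while Birc5 and Mki67 were not.

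Replication-dependent histone genes, which are transcribed in S phase, showed the largest list median. Of the 67 such genes in the matrix 41 entered, and 40 were higher and none lower, with a median log2 ratio of 3.26. They summed to 6815 CPM in Pf4-high cycling cells and 747 CPM in low-cycle cells. Hist1h1b, the linker histone H1.5 (chromosome 13, 21779883 to 21780625, minus strand), ranged from 0 to 58.6 UMIs per 10000 with a median of 10.79 in cycling cells, against 0 to 8.91 with a median of 0 in low-cycle cells, and 1390 CPM against 75.04 CPM summed, a ratio of 18.5 (16.4 to 21.0). The ranges overlapped, since 8 of the cycling cells had none and 71 of the low-cycle cells had some. Many core histone genes have near-identical copies, so their single values are uncertain, and a poly(A)-primed method sees the histone transcripts only in part.

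Other division machinery was higher to a lesser and uneven extent. Of 34 kinetochore and spindle checkpoint genes 32 were higher (median log2 ratio 2.11), and of 9 tubulins that entered all 9 were. Of 24 genes of condensin, cohesin and chromosome structure 15 were higher and none lower: Smc4 and Smc2, the condensin ATPases, had 357 CPM and 258 CPM in Pf4-high cycling cells and 104 CPM and 73.1 CPM in low-cycle cells, while the cohesin subunit Smc3 had 214 CPM and 186 CPM. The Aurora B kinase gene Aurkb had 126 CPM in cycling cells and 9.52 CPM in low-cycle cells. Among 19 cyclin and cyclin-dependent kinase genes 11 were higher and 2 lower. The 2 lower ones were the D-type cyclins of G1, Ccnd1 with 57.4 CPM in Pf4-high cycling cells and 87.5 CPM in low-cycle cells, and Ccnd2 with 155 CPM and 253 CPM. Cdkn2c and Cdkn2d, inhibitors of CDK4 and CDK6, were higher, at 26.9 CPM and 118 CPM in cycling cells and 5.98 CPM and 59.5 CPM in low-cycle cells.

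Genes of DNA synthesis differed far less between the 2 Pf4-high groups than the mitotic genes did. Of 43 S phase genes 15 were higher and 3 lower in the Pf4-high cycling cells, with a median log2 ratio of 0.17, and of 40 replication licensing and fork genes 7 were higher and 1 lower (0.09). Ung, the uracil DNA glycosylase, had 29.3 CPM in cycling cells and 69.1 CPM in low-cycle cells. E2f1, the G1/S transcription factor, had 45.3 CPM and 75.04 CPM, and Cdca7, a target of E2F and Myc, had 125 CPM and 212 CPM in the same order. These 3 genes of the G1 to S transition were higher in the low-cycle cells, while 15 of the 43 S phase genes were higher in the cycling cells. The whole S phase list summed to 4435.5 CPM in cycling cells and 3693 CPM in low-cycle cells.

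The low-cycle Pf4-high cells were near the Car1-high low-cycle cells in S phase transcripts and above the Pf4-low Car1-low ones. The S phase list summed to 3693 CPM in Pf4-high low-cycle cells, 3405 CPM in Car1-high low-cycle cells and 2191 CPM in Pf4-low Car1-low low-cycle cells, and its median share at 5000 UMIs was 0.32%, 0.28% and 0.12%. Set against Pf4-low Car1-low low-cycle cells, 767 of 10297 genes (7.45%) were higher and 2175 (21.1%) lower in the Pf4-high low-cycle cells. Of 43 S phase genes 33 were higher and none lower (median log2 ratio 0.75), and of 40 licensing and fork genes 28 were higher (0.76). Ung had 69.1 CPM in Pf4-high low-cycle cells and 31.4 CPM in Pf4-low Car1-low low-cycle cells, and Mcm5, a subunit of the replicative helicase, had 99.0 CPM and 46.4 CPM. At 5000 UMIs per cell, 42 of 146 Pf4-high low-cycle cells (28.8%, 21.6 to 36.8) reached the median S phase share of the Pf4-high cycling cells, against 137 of 1390 Pf4-low Car1-low low-cycle cells (9.86%, 8.34 to 11.5). Between cycling and low-cycle Pf4-low Car1-low cells, where 798 of 10459 genes (7.63%) were higher, 35 of 43 S phase genes were higher in the cycling cells. Between Car1-high cycling and low-cycle cells, where 351 of 9282 genes (3.78%) were higher and 712 (7.67%) lower, 7 of 43 S phase genes were higher and 3 lower, while 43 of 47 G2 and M phase genes were higher. The name low-cycle thus describes the 7 proliferation genes and not an absence of S phase transcripts.

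The megakaryocyte programme itself was close in cycling and low-cycle Pf4-high cells. Of 17 granule and secreted protein genes that entered none was past 1.5-fold in either direction (median log2 ratio -0.17). Vwf (chromosome 6, 125546774 to 125686679) had 114 CPM in cycling cells and 136 CPM in low-cycle cells, and Rab27b, a regulator of granule secretion, had 233 CPM and 219 CPM. Of 23 surface receptor genes 2 were higher and 2 lower, shares near the 5.76% higher and 6.82% lower of all genes. Gp1bb, a subunit of the receptor for von Willebrand factor, had 41.7 CPM in cycling cells and 27.2 CPM in low-cycle cells, and the podoplanin receptor gene Clec1b had 13.3 CPM and 7.34 CPM. Gp1bb lies within 2 overlapping genes of its strand, so reads could be split between them. Esam, an endothelial and platelet adhesion molecule, had 30.8 CPM in cycling cells and 48.7 CPM in low-cycle cells, and the thrombin receptor gene F2rl3 had 14.8 CPM and 22.8 CPM. Of 26 megakaryocyte cytoskeleton and signalling genes 2 were higher, again a share near that of all genes. They were the alpha-tubulins Tuba4a, at 179 CPM against 81.0 CPM, and Tuba8, at 88.5 CPM against 47.0 CPM.

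In this comparison 6.82% of all genes were lower. The share was near that among erythroid and megakaryocytic transcription factors and larger among HSC identity genes. Of 24 erythroid and megakaryocytic transcription factors 2 were lower and none higher: Gfi1b, a repressor needed for both lineages, had 48.8 CPM in Pf4-high cycling cells and 89.996 CPM in low-cycle cells, and Lyl1 had 29.9 CPM and 47.3 CPM. Gata1 had 55.9 CPM and 54.1 CPM, and Fli1, an ETS factor of the megakaryocyte branch, 556 CPM and 619 CPM. Of 33 HSC identity genes 6 were lower and none higher (median log2 ratio -0.27), among them Pdzk1ip1 with 86.4 CPM in cycling cells and 144 CPM in low-cycle cells. Outside these lists, Myc, a growth regulator, had 52.1 CPM in cycling cells and 101 CPM in low-cycle cells, and the early activation gene Cd69 had 89.96 CPM and 165 CPM. Sqle, a cholesterol synthesis enzyme, had 22.8 CPM and 43.2 CPM, and Gkn3 3.26 CPM and 27.2 CPM. Gkn3 depended on which cells entered: its log2 ratio was -3.06 over all cells and 0.21 against the low-cycle cells with a 7-gene sum of 0. None of 81 ribosomal protein and 60 oxidative phosphorylation genes passed 1.5-fold.

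**Figure D3:**
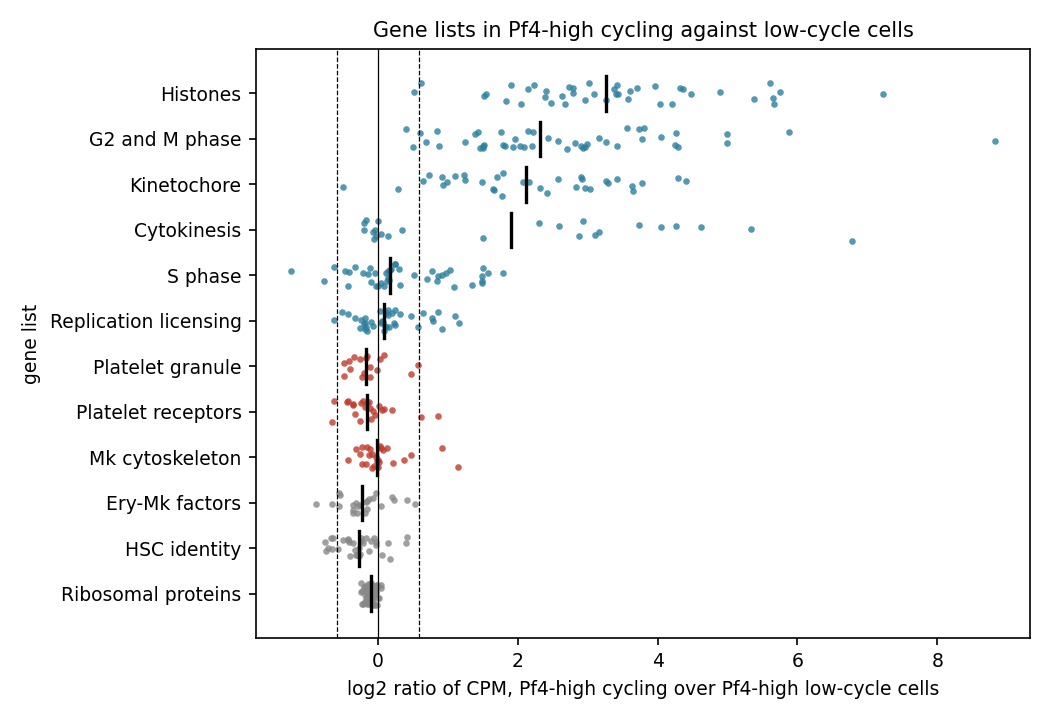
Log2 ratio of CPM in Pf4-high cycling over Pf4-high low-cycle cells for each gene of 12 lists (points), with the list's median as a black bar and dashed lines at 1.5-fold in either direction. The G2 and M, kinetochore and histone lists lie above the upper line at medians of 2.32, 2.11 and 3.26, and the granule and receptor lists lie around 0 at -0.17 and -0.15.

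Set against the rest of the library, 867 of 9987 genes (8.68%) were higher and 1235 (12.4%) lower in the Pf4-high cycling cells. Besides Pf4, the highest ratios included platelet genes such as Mrvi1, Serpine2, Gp1bb, F2rl2 and Cavin2, and genes of other roles such as Chsy3, a chondroitin synthase, with a ratio of 15.3. Mrvi1, an inositol trisphosphate receptor-associated cGMP kinase substrate of platelets (chromosome 7, 110868266 to 110982461), had 83 UMIs in Pf4-high cycling cells and 16 UMIs in the 2474 other cells, a ratio of CPM of 88.4 (51.4 to 162). Serpine2, a thrombin inhibitor of platelet granules (chromosome 1, 79794197 to 79861180), had 122 CPM in 60 of the 100 cells and 3.58 CPM in the rest, a ratio of 34.2 (28.9 to 40.6). Of 15 granule genes 10 were higher and none lower, and of 21 surface receptor genes 16 were higher and none lower, with medians of 1.83 and 1.75 on the log2 scale.

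Genes lower than in the rest of the library were erythroid, stem cell and immediate early genes. Of 26 erythroid genes 20 were lower and none higher (median log2 ratio -1.91), in a comparison whose other side holds 847 Car1-high cells. Klf1, the erythroid Kruppel-like factor, had 11.5 CPM in Pf4-high cycling cells and 84.8 CPM in the rest. Slc25a21, a mitochondrial carrier, had 4 UMIs against 21767, or 1.18 CPM against 378 CPM, a value 319-fold lower (125 to 1172). Of 36 HSC identity genes 18 were lower and 4 higher: Procr, the endothelial protein C receptor, had 3.85 CPM in Pf4-high cycling cells and 26.8 CPM in the rest, and Ifitm1 199 CPM and 617 CPM. Of 19 immediate early genes 13 were lower, with Fos at 135 CPM against 386 CPM and Egr1 at 67.5 CPM against 202 CPM, and of 20 interferon response genes 12 were lower.

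The genes behind the sort were measured as transcripts only. Slamf1, which encodes CD150, had 24.6 CPM in Pf4-high cycling cells, 34.8 CPM in Pf4-high low-cycle cells and 36.1 CPM in Pf4-low Car1-low cycling cells. Cd48 had 16.6 CPM, 15.5 CPM and 27.6 CPM, and Cd34 18.1 CPM, 22.3 CPM and 47.7 CPM in these groups. Kit had 98.5 CPM, 121 CPM and 169 CPM, and Ly6a, which encodes Sca-1, 79.6 CPM, 99.2 CPM and 183 CPM. Flt3, which encodes Flk2, had 11 UMIs in the 100 cells. None of these transcripts was higher in the Pf4-high cycling cells than in the Pf4-low Car1-low cycling cells.

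The comparison with other cycling cells holds the cycle closer to equal. Over all 696 of them 1476 of 9659 genes (15.3%) were higher and 763 (7.9%) lower in the Pf4-high cycling cells, with a median log2 ratio over all genes of 0.07. TMM factors moved that median to -0.08, and the higher side held 65.9% of these genes by library totals, 49.6% by TMM factors and 49.9% by a median of ratios. Car1-high cells supplied 22712397 of the 28033977 UMIs of that pool, so its 2 classes are given apart. Against Car1-high cycling cells, 2086 of 9544 genes (21.9%) were higher and 867 (9.08%) lower. Against Pf4-low Car1-low cycling cells, 355 of 10033 genes (3.54%) were higher and 1409 (14.0%) lower.

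Against Pf4-low Car1-low cycling cells the division genes were near parity. Of 47 G2 and M phase genes 1 was higher and 2 lower (median log2 ratio -0.01), of 43 S phase genes 1 was higher (-0.11), and of 49 histone genes 1 was higher and 3 lower (-0.09). Hist1h1b had 1390 CPM in Pf4-high cycling cells and 1145 CPM in Pf4-low Car1-low cycling cells, Ube2c 415 CPM and 344 CPM, and Hmmr 123 CPM and 133 CPM. The megakaryocyte genes stood apart: 9 of 15 granule genes, 13 of 23 surface receptor genes and 12 of 26 cytoskeleton and signalling genes were higher, and none was lower. Serpine2 had 122 CPM in Pf4-high cycling cells and 9.21 CPM in the Pf4-low Car1-low cycling cells, a ratio of 13.3 (9.85 to 18.2), and Rap1b, a small GTPase that activates platelet integrins, had 967 CPM and 306 CPM. Mrvi1 had 83 UMIs against none, which makes it at least 43.6-fold higher with the floor of 3 UMIs set over the group.

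The stem cell genes were lower than in those cycling cells. Of 35 HSC identity genes 19 were lower and 3 higher, with a median log2 ratio of -0.73. Mecom, a transcription factor of long-term HSCs (chromosome 3, 29951296 to 30548008), had 249 CPM in Pf4-high cycling cells and 541 CPM in Pf4-low Car1-low cycling cells, and Hlf, another HSC factor, had 52.1 CPM and 140 CPM. Of 19 immediate early genes 13 were lower and none higher, and of 23 cell cycle inhibitor and quiescence genes 9 were lower and none higher, Cdkn1c (p57) with 9.17 CPM and 36.3 CPM among them. Lcp1, the actin bundler L-plastin, had 23.1 CPM against 105 CPM. Cxcl9, an interferon-gamma target, had no UMI against 178 UMIs and was at least 37.7-fold lower.

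Against Car1-high cycling cells the same stem cell genes were on the other side. Of 30 HSC identity genes 24 were higher and 1 lower in the Pf4-high cycling cells (median log2 ratio 1.74), with Mecom at 249 CPM against 52.7 CPM and Meis1 at 532 CPM against 70.3 CPM. Of 21 receptor genes 21 were higher and of 25 erythroid genes 22 were lower. Klf1 had 11.5 CPM in Pf4-high cycling cells and 161 CPM in Car1-high cycling cells, and Gata1 55.9 CPM and 117 CPM. The Pf4-high cycling cells thus lay between the 2 other cycling classes in Mecom and Hlf and above both in Fli1. Fli1 had 556 CPM in them, against 53.4 CPM in Car1-high and 325 CPM in Pf4-low Car1-low cycling cells.

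Ect2 and Myh10, genes of the cleavage furrow, were lower than in both other cycling classes, and their details were followed after the values were seen. Ect2 (chromosome 3, 27097222 to 27153878, minus strand) had 26 UMIs in 12 of the 100 Pf4-high cycling cells, or 7.69 CPM (5.03 to 11.3). It had 2.72 CPM in Pf4-high low-cycle cells, 47.9 CPM in Car1-high cycling cells and 44.9 CPM in Pf4-low Car1-low cycling cells. In the Pf4-high cycling cells Ect2 was 6.23-fold lower (4.23 to 9.58) than in Car1-high and 5.84-fold lower (3.89 to 9.12) than in Pf4-low Car1-low cycling cells. At 5000 UMIs per cell it was seen in 4 of 99 Pf4-high cycling cells (4.04%, 1.11 to 10.0), against 115 of 491 Car1-high (23.4%, 19.7 to 27.4) and 39 of 185 Pf4-low Car1-low cycling cells (21.1%, 15.4 to 27.7), and in 2.05% of Pf4-high low-cycle cells. Equal depth left the order as it was, and the share in the Pf4-high cycling cells was close to that of low-cycle cells.

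The actomyosin genes Myh10 and Anln were less even. Myh10 (chromosome 11, 68691559 to 68816632, plus strand) had 9 UMIs in the Pf4-high cycling cells, or 2.66 CPM, against 34.1 CPM in Car1-high and 12.03 CPM in Pf4-low Car1-low cycling cells. Myh10 was 12.8-fold lower (6.71 to 28.1) than in Car1-high and 4.52-fold lower (2.24 to 10.3) than in Pf4-low Car1-low cycling cells. At 5000 UMIs it was seen in 0 of 99 Pf4-high cycling cells (0 to 3.66%), 75 of 491 Car1-high (15.3%, 12.2 to 18.8) and 6 of 185 Pf4-low Car1-low cycling cells (3.24%, 1.20 to 6.93), where the first and the last interval overlap. Anln, anillin, the furrow scaffold (chromosome 9, 22332012 to 22389188, minus strand), had 49.7 CPM in Pf4-high cycling cells, 81.1 CPM in Car1-high and 68.4 CPM in Pf4-low Car1-low cycling cells, past 1.5-fold against the Car1-high cells only. Other genes of the same list did not follow. Racgap1, which encodes the partner of ECT2 at the central spindle, had 65.4 CPM in Pf4-high cycling cells, 42.6 CPM in Car1-high and 72.9 CPM in Pf4-low Car1-low cycling cells. Aurkb had 126 CPM, 92.1 CPM and 108 CPM, and Birc5 289 CPM, 231 CPM and 255 CPM in the same order. Of 25 genes of the cytokinesis list 9 were higher and 3 lower against Car1-high cycling cells, beside 21.9% higher and 9.08% lower of all genes. Against Pf4-low Car1-low cycling cells 5 of 25 were lower and none higher, beside 14.0% lower of all genes. The others of these 5 besides Ect2 and Myh10 were Cep55, Kif23 and Sept6, at 24.0 CPM against 57.5 CPM, 40.5 CPM against 68.2 CPM and 40.5 CPM against 71.8 CPM.

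**Figure D4:**
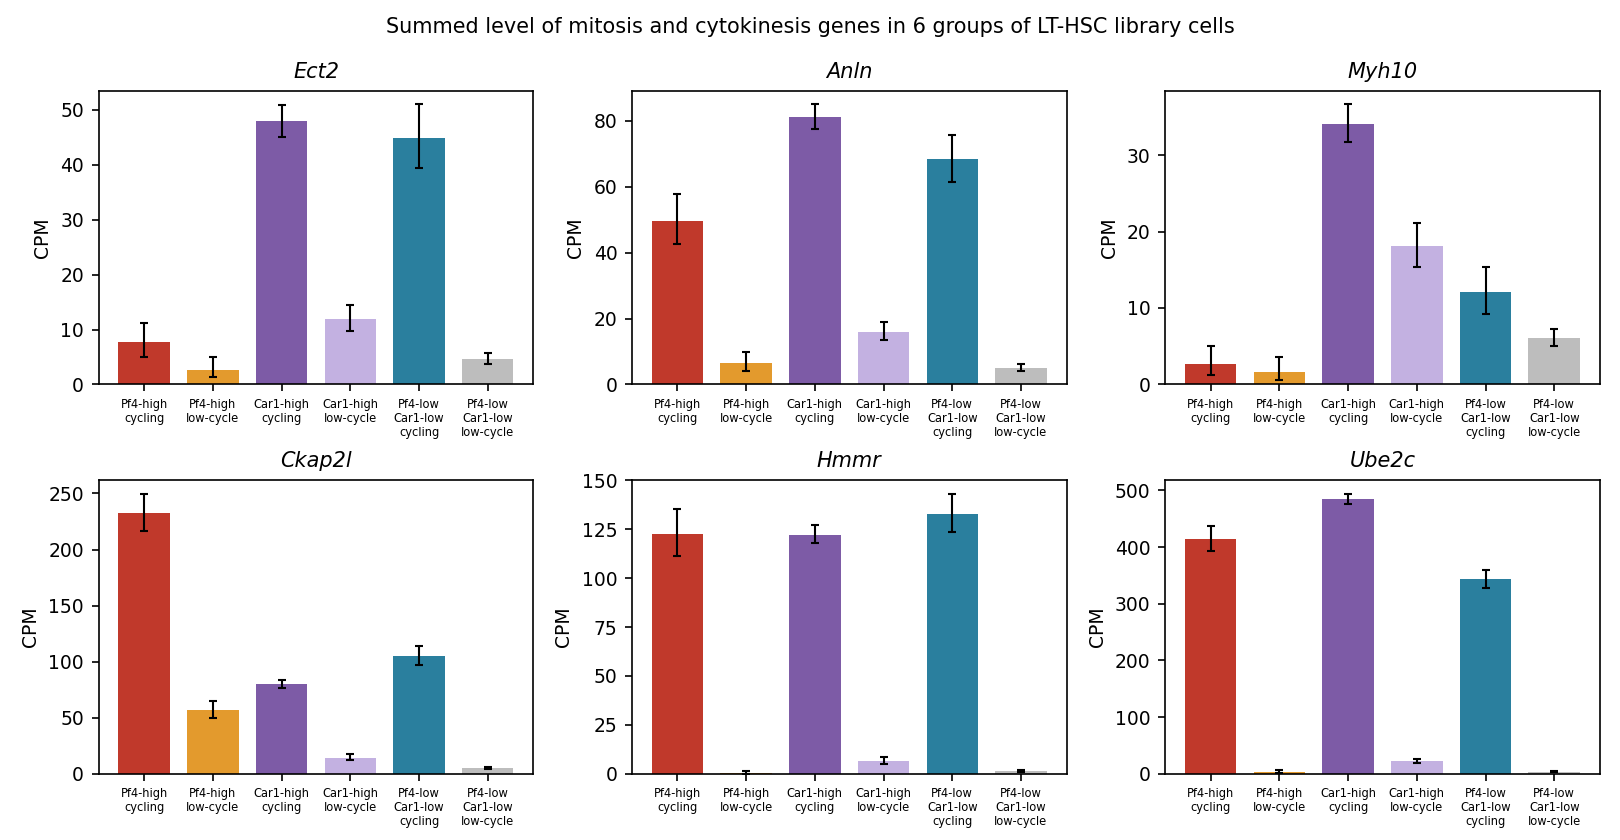
CPM of 6 genes in 6 groups of the LT-HSC library, with the Pf4-high cycling cells at the left of each panel; bars are summed UMIs scaled to 1000000 and error bars exact Poisson 95% intervals that cover counting error only. Ect2 stands at 7.69 CPM in Pf4-high cycling cells beside 47.9 CPM and 44.9 CPM in the other cycling classes, Ckap2l at 233 CPM beside 80.3 CPM and 105 CPM, and Hmmr and Ube2c reach like heights in the 3 cycling classes.

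The classes did not hold the same mix of phases, so the furrow genes were also compared among cells with more G2 and M than S phase transcripts. Cells were called G2/M-leaning when, at 5000 UMIs, their G2 and M phase share exceeded their S phase share; 70 of 99 Pf4-high cycling cells (70.7%, 60.7 to 79.4), 418 of 491 Car1-high (85.1%) and 115 of 185 Pf4-low Car1-low cycling cells (62.2%) were. In G2/M-leaning cells Ect2 had 20 UMIs in 9 of 70 Pf4-high cells, or 8.31 CPM, against 49.7 CPM in the Car1-high cells, where 334 of 418 had it, and 62.2 CPM in the Pf4-low Car1-low cells, where 78 of 115 had it. That is 5.98-fold (3.85 to 9.83) and 7.49-fold (4.73 to 12.5) lower in the Pf4-high cells. Myh10 had 3 UMIs in these Pf4-high cells, a ratio of 0.0365 (0.00752 to 0.107) to the Car1-high cells and 0.131 (0.0258 to 0.420) to the Pf4-low Car1-low cells. In the same cells Ube2c had 570 CPM, 541 CPM and 527 CPM, Plk1 77.3 CPM, 66.6 CPM and 81.5 CPM, and Ccnb1, the mitotic cyclin B1, 106 CPM, 79.1 CPM and 92.8 CPM. Other late mitotic genes were uneven: Ccnb2, cyclin B2, had 232 CPM, 135 CPM and 249 CPM, Aurkb 150 CPM, 96.8 CPM and 129 CPM, and Kif23, a motor of the central spindle, 53.6 CPM, 30.8 CPM and 91.6 CPM. The part of cycle phase in the Ect2 and Myh10 differences was not tested further.

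Ckap2l went the other way. Ckap2l, a spindle-associated protein of neural and other progenitors (chromosome 2, 129268210 to 129297212, minus strand), had 787 UMIs in 97 of the 100 Pf4-high cycling cells, at a median of 2.004 UMIs per 10000 (0 to 5.73). It had 233 CPM in these cells, 56.8 CPM in Pf4-high low-cycle cells, 80.3 CPM in Car1-high and 105 CPM in Pf4-low Car1-low cycling cells. Among G2/M-leaning cells it had 276 CPM in the Pf4-high class, 3.29-fold higher (3.01 to 3.60) than the Car1-high and 2.08-fold higher (1.84 to 2.35) than the Pf4-low Car1-low class. The 2 low-cycle classes differed more: Ckap2l had 56.8 CPM in Pf4-high low-cycle cells and 5.05 CPM in Pf4-low Car1-low low-cycle cells, a ratio of 11.3 (8.87 to 14.4).

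Ckap2l was counted even where no UMI of the 7 proliferation genes of the rule was. In the 40 Pf4-high low-cycle cells with a 7-gene sum of 0, Ckap2l had 31 UMIs in 19 cells, or 43.5 CPM (29.5 to 61.7), and Ube2c had none. In 735 Pf4-low Car1-low low-cycle cells with a sum of 0 Ckap2l had 8 UMIs, or 0.945 CPM (0.408 to 1.86), and in 68 such Car1-high cells 1 UMI. Cells with a sum of 0 did not lack all cycle transcripts. Hist1h1b had 36 UMIs in 14 of the 40 Pf4-high cells, or 50.5 CPM. It had 21.6 CPM in the 735 Pf4-low Car1-low cells and 140 CPM in the 68 Car1-high cells. The cycling to low-cycle ratio of Ckap2l was accordingly 4.10 (3.51 to 4.797) among Pf4-high, 5.56 (4.63 to 6.72) among Car1-high and 20.8 (16.9 to 25.9) among Pf4-low Car1-low cells. Pimreg, a mitotic gene at metaphase to anaphase, had 52.1 CPM in Pf4-high cycling cells, 1.63 CPM in Pf4-high low-cycle cells, 9.86 CPM in Car1-high and 41.3 CPM in Pf4-low Car1-low cycling cells, and Tuba8 had 88.5 CPM, 47.0 CPM, 7.31 CPM and 30.4 CPM. Foxm1, the transcription factor of the G2 and M genes, had 20.7 CPM, 2.45 CPM, 9.55 CPM and 13.9 CPM in the same order.

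Within the Pf4-high cycling cells the S and G2/M sides formed a continuous spread. At 5000 UMIs the medians were 0.44% of UMIs for the S phase list, 0.76% for the G2 and M phase list and 0.70% for histones, against 0.32%, 0.22% and 0.06% in Pf4-high low-cycle cells. Of 99 cells 27 leaned to S, 70 to G2/M and 2 were equal, while 18 had the 2 shares within 0.1 points. Across these 99 cells the Spearman correlation of the S and the G2/M share was -0.71, and that of the 7-gene sum was 0.86 with the G2/M share and -0.59 with the S share. These shares come from the same 5000 UMIs per cell, so they are not independent. The 7-gene rule therefore ranked the cells mainly by their G2/M share.

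**Figure D5:**
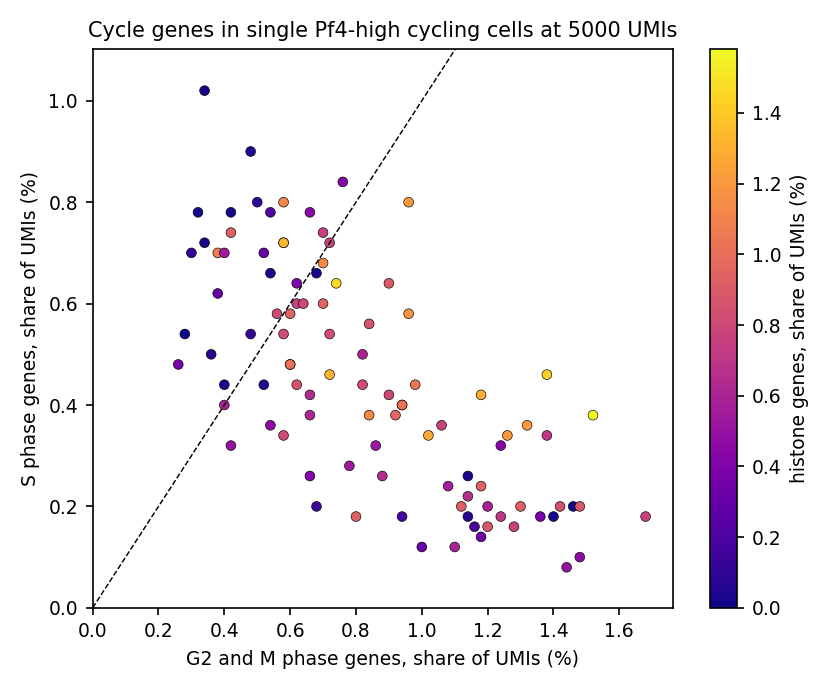
Each of 99 Pf4-high cycling cells with at least 5000 UMIs is a point, with the percent of 5000 UMIs in G2 and M phase genes on the horizontal axis and in S phase genes on the vertical axis; colour gives the percent in histone genes and the dashed line equal shares. Of the 99 cells 70 lie below the line, 27 above it and 2 on it.

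The split by phase was made on the S and the G2 and M lists, so the direction of cycle genes in it is fixed by the split and is given as a description. Between the 27 S-leaning and the 70 G2/M-leaning cells, 1359 of 9739 genes (14.0%) were higher and 1005 (10.3%) lower in the S-leaning cells, whose fewer UMIs (830442 against 2405987) add counting noise. Of 47 replication-dependent histone genes, which are transcribed in S phase, none was higher and 26 were lower in the S-leaning cells. They summed to 4383 CPM in S-leaning and 7749 CPM in G2/M-leaning cells, so the 2 labels do not part the phases cleanly. Cyclin E genes Ccne1 and Ccne2 had 36.1 CPM and 87.9 CPM in S-leaning cells and 7.48 CPM and 22.4 CPM in G2/M-leaning cells. Cenpa, the centromeric histone, had 18.1 CPM and 312 CPM, and Ckap2l 131 CPM and 276 CPM. Of 23 surface receptor genes 1 was higher and 2 lower, and of 18 granule genes 3 were higher and 2 lower. The share of receptor genes that were higher lay under the 14.0% of all genes, and the other shares were near those of all genes. Cavin2 had 260 CPM in S-leaning cells and 312 CPM in G2/M-leaning cells, and Itga2b had 200 CPM and 160 CPM.

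The Pf4-high cycling cells were also divided by their Pf4 level, which is a value of the rule, so the differences are a description. Pf4 had medians of 33.0 UMIs per 10000 (13.5 to 182) in the 27 S-leaning and 55.7 (10.5 to 220) in the 70 G2/M-leaning cells, with ranges that overlap. Over 99 cells its Spearman correlation was weak, at 0.107 with the G2/M share and -0.171 with the S share. The 50 cells with more Pf4 and the 50 with less had median levels of 88.2 and 23.2 UMIs per 10000, and 478 of 9747 genes (4.9%) were higher and 1468 (15.1%) lower in the upper set. Of 32 HSC identity genes 17 were lower and none higher (median log2 ratio -0.63): Mecom had 134 CPM in the upper set and 380 CPM in the lower set, 2.84-fold lower (2.44 to 3.31), Hlf had 36.2 CPM and 70.0 CPM, and Meis1 had 401 CPM and 679 CPM. Of 23 receptor genes 12 were higher and none lower, with Gp1bb at 61.3 CPM in the upper set and 19.5 CPM in the lower set. Serpine2 had 186 CPM and 49.8 CPM, and Dhrs3, a retinal reductase, 54.6 CPM and 8.20 CPM. Of 47 G2 and M phase genes 2 were higher and 4 lower (-0.01). Ect2 had 2 UMIs in the upper set and 24 UMIs in the lower set, a ratio of 0.0737 (0.00844 to 0.297), and Ckap2l had 288 CPM and 171 CPM.

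Low-cycle Pf4-high cells were split in the same way, and the 2 splits were not tested against each other. In sets of 74 cells with median Pf4 levels of 62.3 and 21.2 UMIs per 10000, 529 of 9861 genes (5.36%) were higher and 873 (8.85%) lower in the upper set. Of 34 HSC identity genes 11 were lower and 1 higher (median log2 ratio -0.27), and Mecom had 244 CPM in the upper set and 280 CPM in the lower set. Over single cells the Spearman correlation of Pf4 with the HSC identity share was -0.52 in 99 cycling cells and -0.13 in 146 low-cycle cells. Ckap2l had 75.3 CPM in the upper set and 32.6 CPM in the lower set, and Vwf 175 CPM and 84.7 CPM.

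In the ST-HSC library 2 of 6648 kept cells met the same rule, a share of 0.0301% (0.00364 to 0.109), and 9 more were Pf4-high low-cycle cells. The 2 cells had 27157 and 41460 UMIs, with 114 and 61 Pf4 UMIs. They carried 5 Ckap2l UMIs each, 51 and 58 Hist1h1b UMIs, 14 and 18 Mki67 UMIs, 6 and 5 Itga2b UMIs, 1 and 3 Cavin2 UMIs, and no Gp1bb UMI. The rule itself requires Pf4 and division transcripts together, and 29.5% of kept cells of that library were Pf4-low Car1-low cycling cells. With 1 library per gate, the sorting gate and the library cannot be told apart.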

How the data were processed

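The authors deposited raw UMI counts per gene and cell for 2 libraries of sorted mouse HSCs. Reads were aligned to mm10 with Cell Ranger 7.2, per the submitters' processing notes, while the file headers name version 7.1.0. No barcode with under 500 UMIs was in the LT-HSC matrix. Of 2938 barcodes in the LT-HSC library 2722 were kept, and of 7586 in the ST-HSC library 6648.

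Counts were summed over the cells of each group and divided by the group's total to give CPM. Ratios carry exact conditional binomial intervals, shares Clopper-Pearson intervals and CPM exact Poisson intervals, at 95%. UMIs of 1 library are not replicates, and these intervals cover counting error only. With 1 library per gate no p-value was computed. A gene entered a comparison at a mean of 5 CPM or more, and was counted as higher or lower from 1.5-fold on. A count of 0 was read against a floor of 3 UMIs summed over the group. For shares of cells, each cell was thinned to 5000 UMIs. Scrublet in scanpy 1.11.5 was run on both libraries and its calls were not removed. The ratio code was tested on simulated data. Other versions were numpy 2.4.6, scipy 1.17.1, pandas 2.3.3 and, for TMM factors only, edgeR 4.0.16. Coordinates are of GENCODE M21 (mm10) and promoters of RefSeq.

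The members and the 40 gene lists were chosen with earlier results of these data known. Named genes were, per comparison, the 12 highest and 12 lowest ratios, ranked by whichever end of the interval lay closer to 1, of genes with 20 CPM or more in a group, the same again without cell cycle and histone genes for cycling over low-cycle cells, up to 4 genes per list, and the rule, marker and gate genes. The details on Ect2, Myh10 and Ckap2l, the G2/M-leaning cells and the low-cycle cells with a sum of 0 were chosen after their values were seen.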

Additional observations from a re-analysis of the deposited data

How the results depend on the processing

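No paired analysis was possible because each gate gave 1 library. Without a filter on expression, 2611 genes were higher and 3470 lower in Pf4-high cycling over Pf4-high low-cycle cells, 2641 and 8670 over the rest of the library, and 4289 and 5667 over other cycling cells. At a fold limit of 2 these counts were 295 and 120, 344 and 568, and 692 and 338. TMM factors gave 1148 genes lower than in other cycling cells, and equal weights for cells gave 2083 lower than in the rest. Against low-cycle cells with a 7-gene sum of 0, 1203 genes were higher and 1154 lower. In cells of 10000 to 40000 UMIs, 1134 were lower than in low-cycle cells, 2206 lower than in the rest, and 759 higher and 1232 lower than in other cycling cells. Of the gene ratios recomputed, 4679 moved by less than their interval, 709 moved further and 12 turned direction. Of the list medians recomputed, 884 were labelled the same and 306 moved, and of the counts of genes 56 were labelled the same and 20 moved. Pecam1 over other cycling cells turned to a log2 ratio of -0.076 with equal weights and -0.22 in cells of 10000 to 40000 UMIs, where Prtn3 turned to -0.255. Over low-cycle cells with a sum of 0, Cdkn1a turned to 0.61, Gkn3 to 0.21, Hspb1 to 0.92, Ifi27l2a to 1.077, Mamdc2 to 0.00289 and Rarb to 0.077. In cells of 10000 to 40000 UMIs, Gkn3 turned to 0.054, Hspb1 to 0.92 and Il1r1 to -0.50. The cause was not tested. Without the barcodes found in both libraries, an alternative chosen after seeing the data, 99 Pf4-high cycling cells were left.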
